A study of Mus musculus with 76 samples.

Results

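Lung vessels of mice labelled Noxo1 knockout were compared with those of wild-type mice, none of them exposed to cigarette smoke. The comparison used 19 of the 76 arrays of the series, all those labelled control and vessel. They came from 4 knockout mice after 3 months, 5 knockout mice after 8 months, 4 wild-type mice after 3 months and 5 wild-type mice after 8 months. After 3 months a pair of wild-type arrays carried the number of mouse 25 and was averaged, which left 18 mice, 9 of each genotype. The whole series held 37 vessel arrays and 39 arrays of alveolar septa from 40 mice of both genotypes, kept as controls or exposed to smoke.

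The allele is given as Noxo1(tm1881_17.2Arte) on a C57BL/6 background, and this strain name stands on wild-type and knockout samples alike. The sources used here do not give the part of the gene that is deleted, the sex of the mice, or what air the controls breathed. Smoke exposure of the other mice began at week 12, and the months count from then. Mice were housed 5 to a cage, and which mice shared a cage is not given. Each array holds RNA of tissue microdissected from 1 mouse, so p values rest on the spread between arrays of different mice. That spread includes the variation of dissection, amplification and array, which cannot be told apart from that of the mice.

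NOXO1, the NADPH oxidase organiser, is a scaffold protein without enzymatic activity. It assembles with the activator NOXA1, the small GTPase RAC1 and the membrane subunit p22phox (Cyba) around the catalytic subunit NOX1, and this complex transfers electrons from NADPH to oxygen to make superoxide. Vascular smooth muscle and endothelium are known to use NOX1, NOX2 (Cybb) and NOX4. Superoxide from NOX1 and NOX2 removes nitric oxide and alters vessel tone and smooth muscle growth. The title of the series names the role of NOXO1 in emphysema and pulmonary hypertension caused by smoke, and the unexposed vessels are its baseline for genotype.

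All levels below are log2 signals of the deposited table, with the brightest feature kept for each of 20710 genes. A level of 3.31, the 95th percentile of the means of 1324 odorant and vomeronasal receptor genes, served as the background level, and 12652 genes (61.1%) had a mean above it. Differences are knockout minus wild type in log2 units with months as a factor, so that 1 unit stands for a 2-fold signal. Each array correlated with the rest of these arrays at a median of 0.804 to 0.884. The residual SD of a gene had a median of 0.942 and the standard error of its genotype difference a median of 0.455. Array signals carry no counts, and the number of mice limits the precision.

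The tissue label was checked with genes of the vessel wall. Acta2, the smooth muscle actin, had 14.10 to 15.16 in knockout and 14.64 to 15.13 in wild-type vessels. Myh11, Tagln and Cnn1 of the contractile apparatus and Vwf of vascular endothelium were above 10 in all 18 mice. The airway club cell gene Scgb1a1 and the type 2 pneumocyte gene Sftpc were above 10 in all 18 mice as well, so the dissected pieces also held RNA of airway and alveolus. Myh6, the atrial myosin heavy chain found in mice also in the muscle sleeve of pulmonary veins, was above 10 in 2 of 9 knockout and 3 of 9 wild-type mice. Myh6, Actc1 and Ager are named outside the rule for named genes, after their values were seen.

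Several arrays stood apart by sex-linked genes. Xist, expressed from the inactive X chromosome of female cells, was above the Y-linked Eif2s3y in 3 arrays. These were knockout replicate 2 at 3 months (Xist 10.81, Eif2s3y 2.04), knockout replicate 4 at 8 months (Xist 12.92, Eif2s3y 1.66) and wild-type replicate 3 at 3 months (Xist 12.32, Eif2s3y 1.96). The first and the third had the same pattern in the septa of the same mouse (mice 1 and 22). Knockout replicate 4 at 8 months is labelled mouse 7, whose septa had Xist 2.07 and Eif2s3y 8.42. Wild-type replicate 2 at 8 months is labelled mouse 29, with Xist 3.45 and Eif2s3y 8.88 in vessels, against Xist 12.48 and Eif2s3y 2.89 in its septa. The vessel and septa arrays of mice 7 and 29 thus disagreed, and results that move with them are also given without both vessel arrays. Knockout replicate 2 at 8 months (mouse 10) had Xist 4.95 and Eif2s3y 7.81, with Xist above the mean of its Y-linked genes only.

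Noxo1 itself did not separate the genotypes. Its signal was low in all groups, at 3.61 ± 1.51 in knockout and 3.58 ± 1.50 in wild-type vessels (SD, n = 9 each), close to the background level. After 3 months Noxo1 had 3.95, 2.25, 4.57 and 3.04 in knockout vessels, against 1.97, 3.52, 2.90 and 5.82 in wild-type vessels. The 3.52 is the mean of the arrays of mouse 25, which had 1.92 and 5.11, so the signal differed widely between arrays with 1 mouse number. At 8 months the values were 3.89, 2.77, 2.58, 7.03 and 2.42 in knockout vessels, against 1.96, 5.88, 3.80, 2.27 and 4.08 in wild-type vessels. The groups overlapped at both times. The highest knockout value, 7.03, is that of mouse 7, and it ranked 1 among the 76 arrays of the series.

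The difference in Noxo1 was 0.03 with a standard error of 0.70 and a 95% interval of -1.42 to 1.48 in limma (unadjusted p = 0.964). An exact two-sided permutation test within months gave a difference of 0.02 (p = 0.979 over 17640 permutations, smallest possible p 0.00011). At 3 months the difference was -0.10 (exact p = 0.943, smallest possible 0.0286) and at 8 months 0.14 (exact p = 0.873, smallest possible 0.00794), and over these 3 tests every adjusted p was 0.979. Without mice 7 and 29 the difference was -0.11 (exact p = 0.849). The single Noxo1 feature may lie outside the deleted part, so its signal does not check the genotype labels, and knockout here means the mice so labelled. In smoke-exposed vessels Noxo1 differed by -1.69 (limma unadjusted p = 0.0163, adjusted p = 0.975) and in control septa by -0.92 (limma unadjusted p = 0.131).

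No gene of the NADPH oxidase family passed the test between the genotypes. Of 17 listed genes 15 were measured, Noxo1 included, and 8 of these had a difference above 0 and 7 below it, with a median of 0.01. Without mice 7 and 29 the median was -0.11 with 6 above 0. Over all genes it was -0.02, with 9815 genes (47.4%) above 0. No member had an unadjusted p below 0.05, where 898 of 20710 genes (4.34%) did. Since these are bulk samples, fewer cells of a type and less RNA per cell cannot be told apart in any of these differences.

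Nox1, the catalytic partner of NOXO1, lay below the background level in all mice but 1. It had 1.37, 1.91, 2.19 and 1.71 in knockout vessels and 1.56, 2.03, 2.36 and 1.55 in wild-type vessels after 3 months. In the 8 month groups it had 1.77, 1.79, 1.29, 3.93 and 1.34 in knockout vessels and 1.58, 1.93, 1.30, 1.49 and 2.65 in wild-type vessels. The value of 3.93 is again that of mouse 7. The difference was 0.09 ± 0.30 (standard error), and it was -0.14 without mice 7 and 29.

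Noxa1, the activator subunit, had its larger difference at 8 months. After 3 months it had 3.67, 2.28, 3.68 and 3.28 in knockout vessels, against 5.14, 2.80, 2.90 and 2.77 in wild-type vessels. The 8 month values were 4.66, 3.50, 2.36, 3.86 and 4.28 in knockout vessels, against 2.46, 3.11, 2.76, 2.13 and 1.63 in wild-type vessels. At 8 months 4 of 5 knockout mice were above every wild-type mouse, and the difference was 1.32 (limma unadjusted p = 0.0442, adjusted p = 0.999). At 3 months the difference was -0.17, and the difference between the times did not pass the test (limma unadjusted p = 0.122).

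The shared membrane subunit and the GTPases were well above background in every mouse. Cyba, p22phox, had 10.76 to 11.89 with a median of 11.44 in knockout and 11.09 to 11.69 with a median of 11.33 in wild-type vessels, a difference of 0.15 ± 0.15. Its features disagreed, with 0.12 and -1.17, and their mean gave -0.58. Rac1 had 13.52 to 14.36 in knockout and 13.83 to 14.95 in wild-type vessels, with a difference of -0.23 ± 0.12 (limma unadjusted p = 0.0699), the lowest unadjusted p of the list. Rac2, the GTPase of blood cells, had medians of 6.75 in knockout and 6.41 in wild-type vessels and a difference of 0.01. All of these ranges overlapped.

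Nox4, the constitutively active oxidase of the vessel wall, had 7.41, 7.85, 6.95 and 8.49 in knockout vessels and 8.51, 7.80, 7.61 and 8.46 in wild-type vessels after 3 months. After 8 months it had 7.60, 5.97, 6.34, 6.73 and 8.02 in knockout vessels and 7.30, 8.31, 8.23, 7.68 and 5.72 in wild-type vessels. The groups overlapped at both times, and the difference was -0.47 ± 0.39 (limma unadjusted p = 0.241).

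The phagocyte oxidase genes varied widely between mice of 1 group. Cybb, the catalytic subunit NOX2, had 10.19, 4.81, 9.41 and 10.19 in knockout vessels after 3 months, and 6.87, 7.32, 9.90 and 9.08 in wild-type vessels. After 8 months Cybb had 2.53, 5.69, 8.45, 7.78 and 2.68 in knockout vessels, against 9.59, 9.34, 8.21, 5.87 and 4.22 in wild-type vessels. Its difference of -0.96 had a standard error of 0.95. Ncf1, the organiser p47phox and the closest relative of NOXO1 in function, had medians of 5.94 in knockout and 5.76 in wild-type vessels, and a difference of -0.72 ± 0.72.

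Ncf4, the phagocyte subunit p40phox, was the 1 member whose groups did not overlap at a time. After 3 months it had 5.78, 6.20, 5.33 and 7.71 in knockout vessels, each above the 4.34, 3.15, 2.44 and 5.28 of wild-type vessels. The difference at 3 months was 2.45 (limma unadjusted p = 0.0217, adjusted p = 0.827), where 310 genes (1.5%) had all knockout above all wild-type mice. After 8 months Ncf4 had 4.10, 4.39, 6.24, 2.30 and 4.12 in knockout vessels, against 7.92, 3.75, 4.36, 4.95 and 6.49 in wild-type vessels, a difference of -1.26. The difference between the times was -3.72 (limma unadjusted p = 0.0107, adjusted p = 0.878).

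The remaining members had means near or below the background level. Their differences were 0.67 for Duox2 and 0.12 for Duox1, the dual oxidases of epithelia, -0.29 for Duoxa1 and -0.11 for Duoxa2, which mature them, and -0.25 for Nox3, the oxidase of the inner ear. None of them had an unadjusted p below 0.05, and the ranges of knockout and wild-type vessels overlapped for each.

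**Figure D1:**
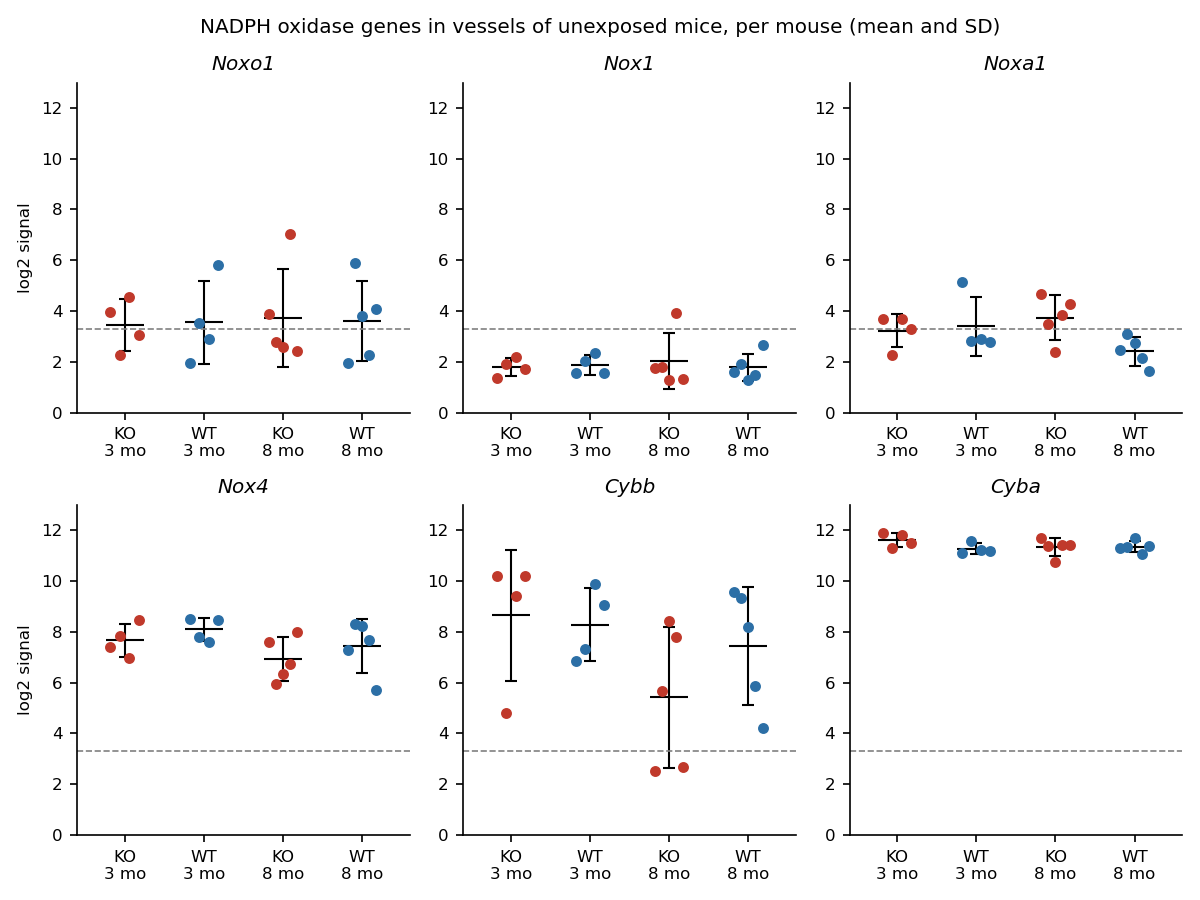
Log2 signal of NADPH oxidase genes in each mouse, knockout left of wild type at each time, with the group mean as a bar, the SD as whiskers and the background level of 3.31 as a dashed line. Knockout and wild-type points of Noxo1 overlap at both times, and Noxo1 lies near the background level.

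Across the transcriptome no gene passed adjustment. Of 20710 genes, 0 (0.0%) had an adjusted p below 0.05 in limma, and the lowest adjusted p was 0.999. At an unadjusted p below 0.05 there were 380 genes (1.83%) with higher signal in knockout vessels and 518 (2.5%) with lower signal. The median size of a difference was 0.291, and 1226 genes above background had a size over 1 and 68 over 2. In 0 genes (0.0%) did all 9 knockout mice lie above or below all 9 wild-type mice. Of 31125 features without a gene symbol, tested apart, 0 passed adjustment and 1432 had an unadjusted p below 0.05.

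The split of higher and lower genes moved with the scaling of the arrays. At an unadjusted p below 0.05, 42.3% of the genes were higher in knockout vessels with the deposited values. This share was 50.5% after quantile normalization over these arrays, 55.1% after centring each array on its median, and 34.2% among genes above background alone. No direction over all genes can be read from it.

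The genotype differences of the 2 times were nearly unrelated. Their correlation over the 20710 genes was -0.039, and -0.052 over genes above background, a description in which genes are not independent. At 3 months 0 genes (0.0%) passed adjustment and 1186 (5.73%) had an unadjusted p below 0.05, 559 (2.7%) higher and 627 (3.03%) lower in knockout vessels. At 8 months 0 (0.0%) passed and 874 (4.22%) had an unadjusted p below 0.05, 374 (1.81%) higher and 500 (2.41%) lower. The test of the difference between the times passed for 0 genes (0.0%), with 1124 (5.43%) at an unadjusted p below 0.05, of which 521 (2.52%) had a knockout minus wild-type difference that was higher at 8 months and 603 (2.91%) one that was lower. The genotype difference was below 0 in 10495 genes (50.7%) at 3 months and in 10988 (53.1%) at 8 months.

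Non-overlapping groups were likewise found at single times alone. After 3 months all 4 knockout mice were above all 4 wild-type mice in 310 genes (1.5%) and below them in 318 (1.54%). With 5 mice of each genotype after 8 months these counts were 72 (0.348%) and 71 (0.343%). In 0 genes (0.0%) did the groups separate the same way at both times.

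**Figure D2:**
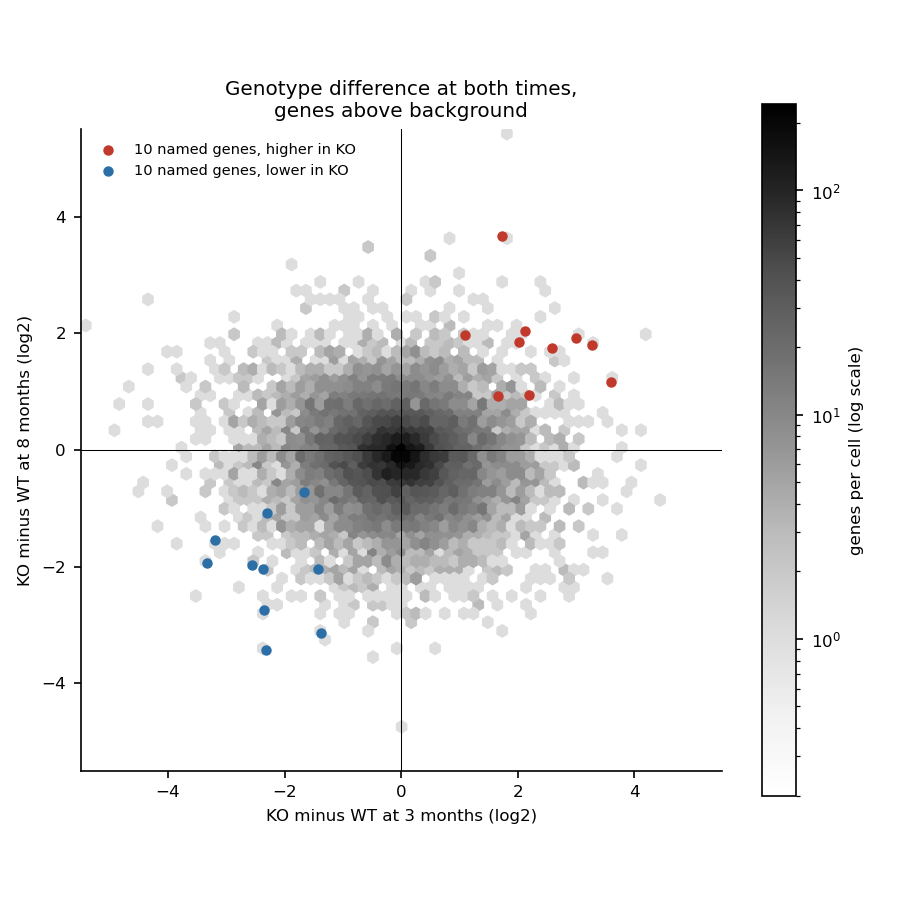
Genotype difference at 3 months (horizontal) and at 8 months (vertical) in log2 units for genes above background, with darker cells holding more genes and the 20 named genes as points. The cloud has no slope, matching the correlation of -0.052, and the named genes lie in the corners where both times share a sign.

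The 20 genes named for the genotype were the 10 of lowest p in each direction among named genes above background. Their sizes ran from 1.14 to 2.94 and their unadjusted p from 0.000324 to 0.00415, with an adjusted p of 0.999 for each. They were chosen from this contrast, so their differences and the shared sign at both times describe them and are no test. The same holds for counts of their knockout mice above or below the wild-type median, whose share over all genes was not computed.

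Among the genes with higher signal in knockout vessels, Zfp458, a zinc finger protein, had the lowest p. After 3 months it had 5.55, 4.27, 3.42 and 4.39 in knockout vessels, against 0.97, 4.52, 1.67 and 3.52 in wild-type vessels. At 8 months the values were 7.51, 3.72, 5.27, 4.52 and 8.22 in knockout vessels, each above the 2.12, 2.53, 2.36, 2.44 and 1.43 of wild-type vessels. All 9 knockout mice were above the wild-type median, and the difference was 2.81 ± 0.66 (standard error).

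Ramp1 encodes the accessory protein that turns the calcitonin receptor-like receptor into a receptor for the vasodilator peptide CGRP. It had 7.02, 7.87, 5.92 and 9.23 in knockout vessels after 3 months, and 5.88, 6.56, 2.14 and 3.44 in wild-type vessels. In the 8 month groups it had 3.71, 7.14, 5.28, 6.68 and 4.67 in knockout vessels, against 3.62, 2.18, 3.07, 4.59 and 4.40 in wild-type vessels. The groups overlapped at both times although all 9 knockout mice were above the wild-type median, and the difference was 2.40 ± 0.68. The features of Ramp1 disagreed, with 2.15 for the brightest and -0.24 and -0.19 for the others.

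Wipf2, a partner of the actin-nucleating WASP proteins, had 7.64, 9.27, 10.11 and 8.50 in knockout vessels, each above the 5.43, 4.07, 5.96 and 6.98 of wild-type vessels after 3 months. After 8 months the groups overlapped, with 6.91, 8.21, 6.30, 8.50 and 10.94 in knockout vessels, against 3.40, 8.74, 7.00, 5.54 and 7.18 in wild-type vessels. The difference was 2.45 ± 0.68. Lemd2, a protein of the inner nuclear membrane, had 9.36, 9.99, 10.34 and 9.60 in knockout vessels, against 8.57, 8.53, 8.03 and 7.50 in wild-type vessels after 3 months. It had 8.34 to 10.92 in knockout and 8.05 to 9.22 in wild-type vessels after 8 months, an overlap, and its difference was 1.25 ± 0.32.

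C1galt1c1, the chaperone of the enzyme that builds core 1 O-glycans, had 5.99, 6.47, 7.12 and 7.47 in knockout vessels, each above the 4.88, 4.65, 4.42 and 4.36 of wild-type vessels after 3 months. After 8 months the ranges were 6.43 to 8.26 in knockout and 5.94 to 6.60 in wild-type vessels. The groups met at 8 months, and the difference over both times was 1.49 ± 0.39. Socs4, of the family that damps cytokine signalling, had 5.69 to 8.94 with a median of 6.39 in knockout and 3.80 to 6.27 with a median of 4.77 in wild-type vessels. All 9 knockout mice were above the wild-type median of Socs4, and its difference was 2.08 ± 0.53.

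Gabre, the epsilon subunit of GABA type A receptors, had 6.62, 6.32, 6.28 and 7.57 in knockout vessels, each above the 2.82, 3.06, 1.18 and 5.36 of wild-type vessels after 3 months. The 8 month values were 1.82 to 4.65 in knockout and 1.28 to 3.33 in wild-type vessels, an overlap. Pbrm1, a subunit of the PBAF chromatin remodelling complex, had a median of 7.12 in knockout and 5.32 in wild-type vessels and a difference of 1.92 ± 0.58. Its features disagreed, with 1.96, -0.21 and 1.04.

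Scaf4, a binder of the RNA polymerase II tail, had 8.13, 7.19, 7.90, 8.08 and 8.72 in knockout vessels, each above the 5.69, 6.81, 4.75, 6.38 and 6.57 of wild-type vessels after 8 months. It had 6.28 to 8.29 in knockout and 4.35 to 8.02 in wild-type vessels after 3 months, an overlap. Dnaaf3, which helps to assemble the dynein arms of motile cilia, had 3.88 to 7.13 with a median of 5.28 in knockout and 1.41 to 5.89 with a median of 3.49 in wild-type vessels. Its groups were apart after 3 months and overlapped after 8 months.

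Among the genes with lower signal in knockout vessels, Ankrd39, an ankyrin repeat protein, had the largest size. After 3 months it had 1.57, 4.79, 1.32 and 3.21 in knockout vessels, against 1.56, 5.30, 6.06 and 7.28 in wild-type vessels. After 8 months it had 1.88, 2.26, 1.27, 3.51 and 1.36 in knockout vessels, each below the 6.67, 6.10, 4.88, 3.66 and 6.15 of wild-type vessels. The difference was -2.94 ± 0.71, with 9 of 9 knockout mice below the wild-type median. The knockout mean of 5 of the 10 lower genes, Ankrd39 among them, was at or below the background level, and so was the wild-type mean of 2 of the 10 higher genes.

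Diaph1, a formin that builds straight actin filaments, had 8.71, 6.22, 8.88 and 7.48 in knockout vessels, each below the 10.77, 9.49, 10.20 and 10.03 of wild-type vessels after 3 months. At 8 months the values were 7.58, 8.71, 6.37, 8.20 and 8.38 in knockout vessels, against 8.26, 9.35, 8.31, 9.99 and 8.77 in wild-type vessels, an overlap. The difference was -1.63 ± 0.40, with 9 of 9 knockout mice below the wild-type median.

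Ext2, a subunit of the polymerase that makes heparan sulfate chains, had 7.48, 6.55, 2.85 and 5.56 in knockout vessels, each below the 8.72, 7.99, 8.75 and 9.73 of wild-type vessels after 3 months. At 8 months the groups overlapped, with 6.25 to 9.38 in knockout and 7.68 to 10.75 in wild-type vessels, and the difference over both times was -2.27 ± 0.59. Herpud2, a relative of the endoplasmic reticulum protein HERPUD1, had 6.86, 7.15, 6.11 and 6.96 in knockout vessels, each below the 8.36, 8.77, 8.41 and 8.20 of wild-type vessels after 3 months. The groups of Herpud2 overlapped after 8 months, and its difference was -1.14 ± 0.30. All 10 features of Herpud2 gave differences between -1.30 and -1.06. Their means lay close together, at 7.88 to 8.18, and whether they are repeated spots of 1 probe was not checked.

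Eme2 encodes a partner of the structure-specific nuclease MUS81 and lies near Noxo1 on chromosome 17. It had 2.74, 6.06, 6.33 and 4.40 in knockout vessels, against 7.16, 8.15, 7.91 and 5.69 in wild-type vessels after 3 months. The 8 month values were 5.78, 3.49, 6.65, 1.73 and 5.46 in knockout vessels, against 7.58, 7.35, 7.60, 6.63 and 7.67 in wild-type vessels. The groups overlapped at both times, at 8 months only by 6.65 against 6.63, and all 9 knockout mice were below the wild-type median. The difference was -2.57 ± 0.63. In smoke-exposed vessels Eme2 differed by 0.59 and in control septa by -0.43.

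Of the 24 measured genes that neighbour Noxo1, 8 had a difference above 0, with a median of -0.22, against -0.02 over all genes. Eme2 and Rab26, a GTPase of vesicle transport, had an unadjusted p below 0.05, and both were lower in knockout vessels, where 2.5% of all genes were so. Rab26 had a median of 1.68 in knockout and 2.30 in wild-type vessels, below the background level, and a difference of -0.96 ± 0.33. With Noxo1 itself included, the list had a median of -0.18 in control vessels, with 16 of 25 genes below 0. It was -0.21 with 20 of 25 below 0 in smoke-exposed vessels, and -0.15 with 18 of 25 below 0 in control septa. The share of all genes below 0 in those 2 sets is not given here, and the cause was not tested.

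The other lower genes were Lmbrd2, a membrane protein (-2.35 ± 0.57), Rpa2, a subunit of the single-strand DNA binding protein RPA (-2.19 ± 0.57), and Cdk20, a cyclin-dependent kinase family member (-1.76 ± 0.47). Lipo3, of the acid lipase family, differed by -2.23 ± 0.59 and Csprs by -2.56 ± 0.63. Rpa2 had 1.43 to 4.92 with a median of 2.99 in knockout and 3.19 to 6.54 with a median of 5.04 in wild-type vessels, and Lmbrd2 had 2.97 to 5.81 in knockout and 5.68 to 8.67 in wild-type vessels. Lmbrd2 separated the groups after 8 months and Lipo3 after 3 months. Csprs separated them after 8 months, but its 3 features gave 0.92, -2.75 and -0.80. The second is the brightest over all arrays, and the first is the brightest over control vessels.

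The differences of these 20 genes were smaller, in the median, in other vessels and in septa. In smoke-exposed vessels, from 9 other mice of each genotype, 13 of the 20 had the same sign, where 51.2% of genes above background did. Their median size there was 0.484, against 2.21 in control vessels. At an unadjusted p below 0.05 there was 1 gene, Zfp458, with a difference of 1.63 ± 0.75 (limma unadjusted p = 0.0377, adjusted p = 0.975), beside 1001 of all genes (4.83%), 520 (2.51%) higher and 481 (2.32%) lower in knockout vessels.

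The difference between control and smoke-exposed vessels in the genotype effect was tested as well. It passed adjustment for 0 of 20710 genes (0.0%), with 907 (4.38%) at an unadjusted p below 0.05, and the lowest adjusted p of the 20 was 0.874. At an unadjusted p below 0.05 there were 12 of the 20, which were chosen for the size of 1 side of this difference. Wipf2 had the lowest of these, with 2.45 in control and -1.29 ± 0.66 in smoke-exposed vessels (limma unadjusted p of the difference 0.000213). Ramp1 differed by 0.17 ± 0.77 in smoke-exposed vessels, Socs4 by 0.13 ± 0.54 and Diaph1 by 0.45 ± 0.50.

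In control septa, largely of the same mice, 11 of the 20 had the same sign, where 51.4% of genes above background did. Their median size was 0.237, and none had an unadjusted p below 0.05, where 383 of all genes (1.85%) did. The difference between vessels and septa passed adjustment for 0 genes (0.0%), with 924 (4.46%) at an unadjusted p below 0.05. Among these the knockout minus wild-type difference was higher in vessels than in septa for 427 genes (2.06%) and lower for 497 (2.4%). Of the 20 named genes, which were chosen for the size of 1 side of this difference, 17 had an unadjusted p below 0.05 in it. Zfp458 had 1.08 ± 0.61 in septa, Rpa2 -1.03 ± 0.55 and Herpud2 -0.08 ± 0.23. Over genes above background the genotype differences of control and smoke-exposed vessels correlated at 0.035, and those of vessels and septa at 0.040, as a description over genes that are not independent.

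**Figure D3:**
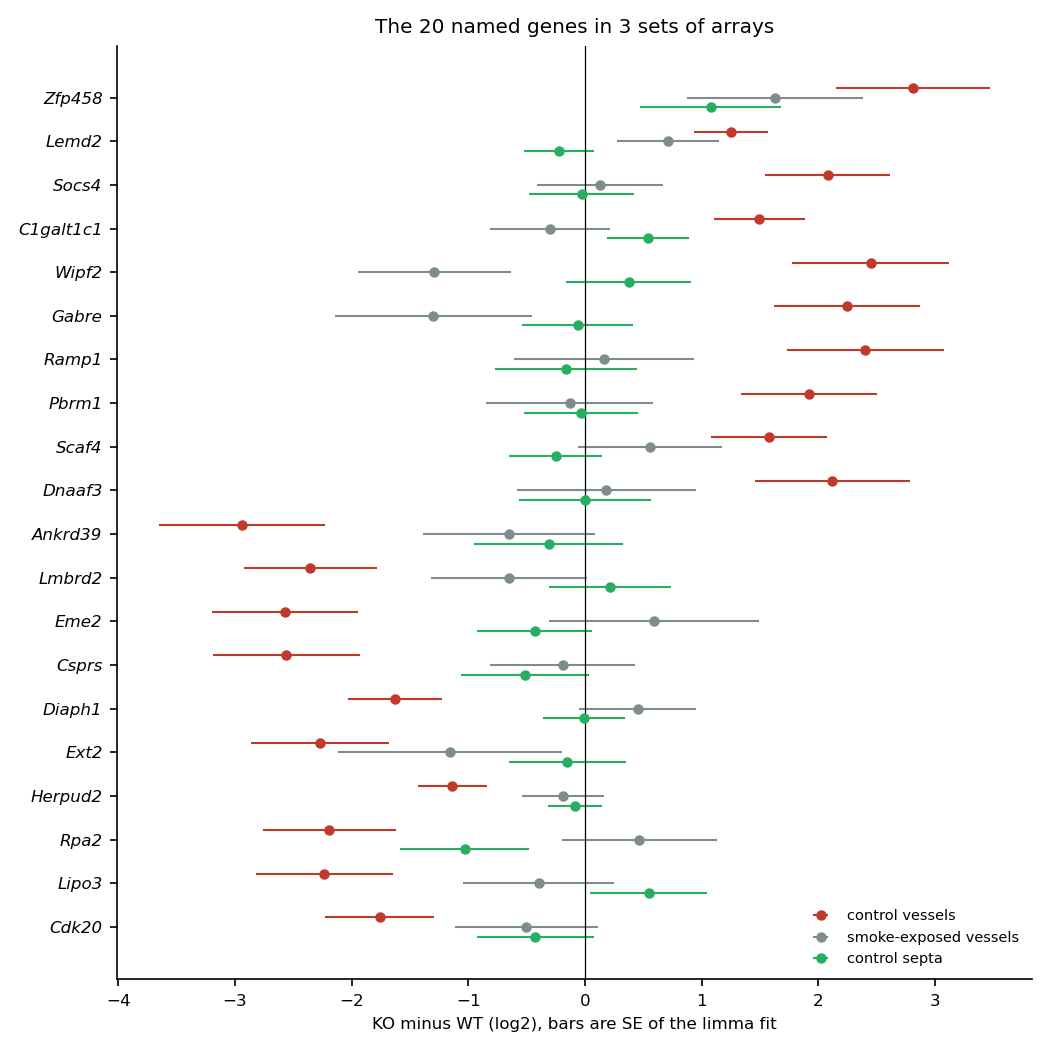
Genotype difference in log2 units, with its standard error, of the 20 named genes in control vessels, smoke-exposed vessels and control septa. Sizes in control vessels, where the genes were chosen, are 1.14 to 2.94, and those in the other sets lie closer to 0, with medians of 0.484 and 0.237.

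After 3 months the genes of lowest p included several with every knockout mouse on 1 side. Among all genes 310 (1.5%) had all knockout mice above and 318 (1.54%) all below the wild-type mice. Genes named for 1 time or for the difference between the times were chosen from that contrast, so their values describe them and are no test. Evi2a, a membrane protein of blood cells, had 7.27, 5.10, 7.31 and 7.31 in knockout vessels, against 2.29, 4.11, 3.47 and 2.23 in wild-type vessels, a difference of 3.72 ± 0.81 (limma adjusted p = 0.573). Tcf7, a transcription factor of T cells, had 7.33, 7.27, 6.93 and 7.34 in knockout vessels, against 2.44, 3.62, 5.00 and 1.28 in wild-type vessels, a difference of 4.13 ± 1.04 (limma adjusted p = 0.646). Lonrf3, a ring finger protein, differed by 3.71 ± 0.86, and Gabre, described above, by 3.59 ± 0.88. Over both times the features disagreed for Tcf7, with 2.08 and -0.13, and for Lonrf3, with 1.09 and -0.57. None of the 4 passed adjustment.

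Lower in knockout vessels after 3 months was Tmem204, a claudin-like protein of endothelium, with 3.92, 1.95, 3.52 and 1.94 in knockout vessels, against 6.87, 5.12, 5.67 and 7.11 in wild-type vessels. Its difference was -3.36 ± 0.73 (limma adjusted p = 0.573) at 3 months and -0.64 at 8 months. Zfp317, a zinc finger protein, differed by -4.43 ± 0.98. Coa4, an assembly factor of cytochrome c oxidase, had 1.80, 1.11, 2.21 and 1.69 in knockout vessels, against 6.12, 4.08, 5.85 and 7.89 in wild-type vessels, a difference of -4.28 ± 0.99. Dnajc30, a mitochondrial chaperone-like protein, differed by -2.76 ± 0.64. All 4, chosen from the 3 month contrast, had groups that did not overlap at 3 months, where 318 of all genes (1.54%) lay lower without overlap.

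After 8 months Mios, a subunit of the GATOR2 complex that controls mTORC1, had 7.11, 6.97, 6.59, 4.07 and 4.76 in knockout vessels, against 1.51, 3.30, 4.12, 2.19 and 1.78 in wild-type vessels. The groups overlapped by 1 mouse of each genotype, and the difference was 3.32 ± 0.85 (limma adjusted p = 0.999). Norad, a long noncoding RNA that binds Pumilio proteins, had 10.50, 9.45, 10.12, 9.75 and 10.09 in knockout vessels, against 7.48, 8.70, 9.64, 7.71 and 7.02 in wild-type vessels, a difference of 1.87 ± 0.46. Over both times the features of Norad gave 1.18, 0.03, 0.02 and -0.88. Acsf3, a mitochondrial malonyl-CoA synthetase, differed by 2.75 ± 0.76 and Zfp458 by 3.67 ± 0.87 at 8 months.

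Lower in knockout vessels after 8 months was Ifitm6, of the interferon-induced transmembrane family, with 1.54, 1.30, 7.27, 1.47 and 1.66 in knockout vessels, against 6.16, 5.86, 9.02, 8.71 and 7.24 in wild-type vessels. Of the knockout mice 4 were far below all wild-type mice and replicate 3 was among them, and the difference was -4.75 ± 1.25 (limma adjusted p = 0.999). St3gal1, a sialyltransferase of O-glycans, had 8.76, 8.26, 9.74, 8.96 and 9.08 in knockout vessels, against 10.40, 10.35, 10.39, 9.95 and 9.48 in wild-type vessels, a difference of -1.16 ± 0.32. Over both times the features of St3gal1 gave -0.42 and 1.40. Wdsub1 differed by -3.34 ± 0.81 and Lmbrd2 by -3.13 ± 0.74.

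The genes of lowest p for the difference between the times had opposite genotype differences at 3 and 8 months, a pattern that this choice favours. Btg1, an antiproliferative gene of lymphocytes and endothelium, had 10.14, 10.48, 11.26 and 11.27 in knockout vessels, each above the 9.88, 9.85, 9.71 and 8.08 of wild-type vessels after 3 months. After 8 months it had 10.27, 9.66, 10.58, 9.96 and 11.11 in knockout vessels, each below the 11.26, 11.14, 11.40, 11.50 and 11.54 of wild-type vessels. The differences were 1.41 at 3 months and -1.05 at 8 months, and their difference was -2.46 ± 0.52 (limma adjusted p = 0.878).

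Srrt, an RNA processing factor, had 4.92, 2.74, 1.75 and 1.74 in knockout vessels, against 6.20, 4.53, 7.26 and 5.92 in wild-type vessels after 3 months. These groups overlapped by 1 mouse of each genotype. After 8 months every knockout mouse was above every wild-type mouse, with 4.72, 4.47, 4.55, 3.98 and 3.54 in knockout vessels, against 1.99, 2.51, 3.14, 1.82 and 2.38 in wild-type vessels. The difference between the times was 5.08 ± 1.06 (limma adjusted p = 0.878). The other genes were Micos13, of the mitochondrial cristae junction (3.50 ± 0.80), Dda1, of the CUL4 ubiquitin ligase (2.96 ± 0.74), and Trak2, an adaptor of mitochondrial transport (4.77 ± 1.20). Lower at 8 than at 3 months in the genotype difference were Zbtb6 (-4.74 ± 1.11), the zinc importer gene Slc39a4 (-4.38 ± 1.06) and Lonrf3 (-4.70 ± 1.15). None passed adjustment.

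Cell types and functions were read through 53 gene lists with 645 distinct measured genes, besides the sex-linked genes. None of these genes passed adjustment, and 38 (5.89%) had an unadjusted p below 0.05, where 4.34% of all genes did. List medians ran from -0.75 for heart muscle to 1.14 for plasma cells, and the lists are described by counts and medians alone. These medians rest on few mice. The median changed sign in 11 of the 53 lists without mice 7 and 29, in 10 without the 3 arrays with Xist above Eif2s3y, in 9 after centring each array on its median and in 3 after quantile normalization. On leaving out 1 mouse at a time it changed sign in 27 lists and changed sign or moved by over 1.5 times in 49. Members named from a list below are those of its lowest p over both times, up to 4, apart from Myh6, Actc1 and Ager. They were chosen from these values, so their differences, p values and counts of mice in control vessels describe them and are no test.

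**Figure D4:**
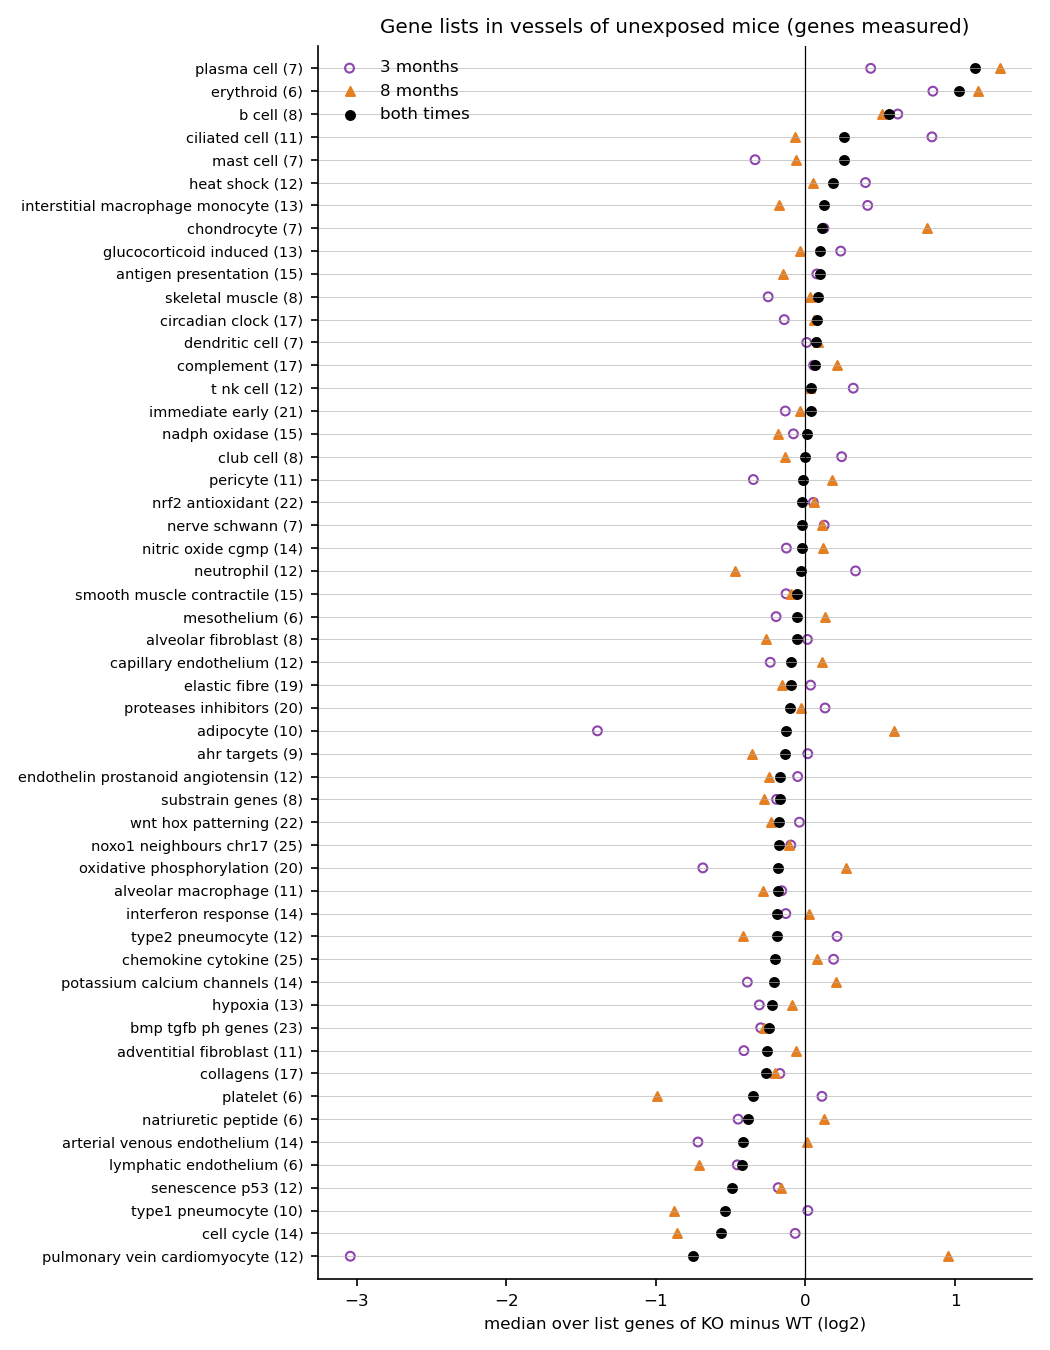
Median genotype difference in log2 units of the members of each gene list, over both times and at 3 and 8 months. Plasma cell genes stand highest over both times with all mice, at 1.14, and the heart muscle list has -3.04 at 3 months and 0.95 at 8 months.

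Most endothelial genes of large vessels had a difference below 0 over both times and at 3 months, and none passed adjustment. Of 14 arterial and venous genes 1 had a difference above 0, and the median was -0.42. At an unadjusted p below 0.05 there were 3, all lower, and no higher one, where 2.5% of all genes were so. At 3 months the median was -0.72, again with 1 of 14 above 0, and at 8 months it was 0.01 with 7 of 14 above 0. The mean of the list was 8.20, 8.16, 7.50 and 7.95 in knockout mice after 3 months, each below the 9.16, 8.54, 8.88 and 8.98 of wild-type mice. This list was picked from 53, and its separation was not tested. Among all genes 318 (1.54%) had every knockout mouse below every wild-type mouse after 3 months. At 8 months the list mean was 8.68, 8.23, 8.29, 8.96 and 8.87 in knockout mice, against 8.82, 8.66, 8.66, 9.10 and 8.79 in wild-type mice, an overlap.

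Slc6a2, the noradrenaline transporter, which marks venous endothelium of the mouse lung, had 2.75, 3.42, 2.26 and 1.74 in knockout vessels, each below the 8.24, 5.83, 6.75 and 7.43 of wild-type vessels after 3 months. In the 8 month groups it had 7.68, 5.82, 7.84, 1.51 and 2.46 in knockout vessels, against 2.50, 7.58, 7.65, 5.77 and 5.46 in wild-type vessels, a full overlap. Its difference was -2.41 ± 0.93 over both times (limma unadjusted p = 0.0161, adjusted p = 0.999). At 3 months it was -4.52 ± 1.29 (limma adjusted p = 0.694).

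Sox17, a transcription factor of arterial endothelium mutated in heritable pulmonary hypertension, had 7.95, 8.48, 7.16 and 6.91 in knockout vessels, against 10.03, 8.97, 9.93 and 8.49 in wild-type vessels after 3 months. The groups did not overlap, by a margin within the second decimal, and after 8 months they did, with differences of -1.73 ± 0.53 at 3 and 0.06 at 8 months. Nr2f2, the venous transcription factor COUP-TFII, had a median of 7.61 in knockout and 8.63 in wild-type vessels and a difference of -1.25 ± 0.51. Gja4, the arterial gap junction protein connexin 37, had a median of 9.66 in knockout and 10.29 in wild-type vessels and a difference of -0.84 ± 0.37. The ranges of both genes overlapped.

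The median of the list was -0.53 without mice 7 and 29, -0.59 without the 3 arrays with Xist above Eif2s3y, and between -0.54 and, without knockout replicate 2 at 8 months, -0.27 on leaving out each mouse in turn. At 8 months it was -0.17 with 3 of 14 above 0 without mice 7 and 29. In smoke-exposed vessels it was -0.12 and in control septa -0.07. Capillary endothelium had a median of -0.10 over 12 measured genes with 4 above 0. Gpihbp1, the capillary protein that carries lipoprotein lipase, differed by -1.17 ± 0.55, with a median of 6.82 in knockout and 9.29 in wild-type vessels. All 6 lymphatic genes had a difference below 0, with a median of -0.43, and 1 of 6 was above 0 with a median of -0.24 without mice 7 and 29. In smoke-exposed vessels the lymphatic median was 0.54 with 5 of 6 above 0, and in control septa it was 0.05 with 3 of 6 above 0. Among the lymphatic genes Reln, reelin, had 1.13 to 3.03 in knockout and 1.94 to 6.51 in wild-type control vessels, a difference of -1.76 ± 0.58.

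In the muscle of the vessel wall no gene reached the unadjusted threshold. The 15 contractile genes of smooth muscle had a median difference of -0.05 with 5 above 0. Acta2 differed by -0.20 ± 0.11. Pericyte genes had a median of -0.01 and adventitial fibroblast genes of -0.26. Without mice 7 and 29 these medians were -0.20 for contractile, -0.15 for pericyte and -0.39 for adventitial fibroblast genes.

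Most matrix genes had differences below 0 over both times, where 52.6% of all genes did. Of 17 collagen genes 4 had a difference above 0, with a median of -0.26, which was -0.14 without knockout replicate 1 at 8 months. The collagen median was -0.09 with 7 of 17 above 0 in smoke-exposed vessels, and 0.03 with 9 of 17 above 0 in control septa. Col4a2, of the basement membrane, had 7.40, 7.49, 7.40 and 6.73 in knockout vessels, each below the 9.63, 9.23, 8.13 and 7.81 of wild-type vessels after 3 months. After 8 months the groups of Col4a2 overlapped, and the difference over both times was -0.95 ± 0.35. Col4a4, another basement membrane chain, differed by -2.44 ± 0.75 with the brightest feature, and its features gave -2.50, 0.32 and -0.42. Elastic fibre genes had a median of -0.10, with 5 of 19 above 0. Their median was 0.03 with 10 of 19 above 0 at 3 months, and -0.16 with 6 of 19 above 0 at 8 months. Fbln5, which organises elastic fibres, had 8.73 to 10.10 in knockout and 9.52 to 10.55 in wild-type vessels, a difference of -0.52 ± 0.22.

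In the pathways known from pulmonary hypertension no gene passed adjustment. Of 23 genes of BMP and TGF-beta signalling 6 were above 0, with a median of -0.24, and Grem1, a BMP antagonist, differed by -0.70 ± 0.28 at a level below background. The 12 genes of endothelin, prostanoid and angiotensin signalling had a median of -0.17. Ace, which converts angiotensin, had 13.92, 13.72, 13.21 and 13.92 in knockout vessels, each below the 14.17, 14.03, 13.93 and 13.94 of wild-type vessels after 3 months. The 8 month values were 13.47, 13.81, 13.36, 13.69 and 13.68 in knockout vessels, against 14.17, 13.75, 14.16, 13.97 and 13.58 in wild-type vessels. All 9 knockout mice were below the wild-type median of 13.97, and the difference of -0.32 ± 0.11 was small against other named genes (limma unadjusted p = 0.00609, adjusted p = 0.999).

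The 14 genes of nitric oxide and cGMP had a median of -0.03 with 6 above 0, and of -0.14 without mice 7 and 29. Nos3, the endothelial nitric oxide synthase, had a median of 8.60 in knockout and 9.06 in wild-type vessels and a difference of -0.58 ± 0.41. That value comes from its brightest feature, and the mean of all its features gave 0.48. Arg1, an arginase that competes for arginine, had 2.14, 5.74, 4.24, 4.17 and 7.06 in knockout vessels, against 1.84, 2.44, 1.51, 2.59 and 3.25 in wild-type vessels after 8 months. Of the 5 knockout mice 4 were above every wild-type mouse, and the difference was 2.34 ± 0.70 at 8 months and 0.26 at 3 months.

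Natriuretic peptide genes had a median of -0.39. Nppc, the C-type peptide of endothelium, lay below background in most mice, with a difference of 1.08 ± 0.46 and 1 knockout mouse at 6.15. The 14 channel genes had a median of -0.21, and Trpc1, a cation channel subunit, differed by 1.40 ± 0.61.

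Genes of redox balance had a median near that of all genes, and those of low oxygen one below it. The 22 measured NRF2 and antioxidant genes had a median of -0.02 with 10 above 0, or 0.11 with 12 above 0 without mice 7 and 29, and Slc7a11, the cystine importer, differed by 0.74 ± 0.25 below the background level. Of 13 hypoxia genes 2 were above 0, with a median of -0.22. Egln3, an oxygen-sensing prolyl hydroxylase induced by HIF, was 1 of these 2, with 2.05 to 8.15 and a median of 5.60 in knockout and 1.13 to 6.40 and a median of 1.99 in wild-type vessels. All 9 knockout mice were above the wild-type median of Egln3, and its difference was 2.60 ± 0.92 (limma unadjusted p = 0.0098, adjusted p = 0.999).

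Developmental genes of lung mesenchyme had a median of -0.18 over 22 genes. Hoxa5, a patterning factor of the lung, had 5.03 to 8.51 in knockout and 6.93 to 8.88 in wild-type vessels and a difference of -1.06 ± 0.44. Hoxb5, its relative, had 2.48 to 8.89 in knockout and 5.35 to 8.55 in wild-type vessels and a difference of -1.48 ± 0.69. Cell cycle genes had a median of -0.57, with 3 of 14 above 0, at -0.07 after 3 months and -0.86 after 8 months. Over both times it was -0.32 without mice 7 and 29 and -0.36 without knockout replicate 4 at 8 months, which is mouse 7.

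Plasma cell genes had the highest median of the lists with all mice, while erythroid genes had a higher one without mice 7 and 29 (1.46) or without the 3 arrays with Xist above Eif2s3y (1.72). Of 7 measured genes 5 were above 0, with a median of 1.14, and 3 were higher at an unadjusted p below 0.05, where 1.83% of all genes were so. The list mean had 4.95 to 8.50 with a median of 7.00 in knockout and 4.52 to 7.13 with a median of 5.73 in wild-type mice, an overlap. The median of the differences was 1.10 without mice 7 and 29 and between 0.80 and 1.32 on leaving out each mouse in turn. It was 0.44 at 3 months and 1.30 at 8 months.

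Jchain, the joining chain of secreted IgA and IgM, had 11.50, 11.94, 10.78 and 2.97 in knockout vessels, against 7.90, 10.10, 9.35 and 2.45 in wild-type vessels after 3 months. After 8 months it had 10.97, 12.20, 12.86, 7.42 and 10.06 in knockout vessels, against 1.86, 1.12, 9.54, 11.09 and 2.75 in wild-type vessels. Of the 9 knockout mice 8 were well above background, and of the 9 wild-type mice 5 were, and the groups overlapped. The difference was 3.84 ± 1.46 (limma unadjusted p = 0.0149, adjusted p = 0.999). In smoke-exposed vessels, from other mice, Jchain differed by 5.14 ± 1.29 (limma unadjusted p = 0.000317, adjusted p = 0.735), and in control septa by 0.81 ± 1.19.

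Derl3, which retrieves misfolded protein from the endoplasmic reticulum of secretory cells, had 1.47 to 7.45 with a median of 4.70 in knockout and 1.17 to 4.56 with a median of 2.30 in wild-type vessels, a difference of 2.02 ± 0.73. Tnfrsf17, the plasma cell receptor BCMA, differed by 1.14 ± 0.48 below the background level. Mzb1, a chaperone of antibody assembly, differed by 1.35 ± 0.78 and did not reach an unadjusted p of 0.05. In smoke-exposed vessels all 7 plasma cell genes were above 0 with a median of 0.66, and in control septa 5 of 7 with a median of 0.04.

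B cell genes had a median of 0.56, with 6 of 8 above 0. Cd79b, of the B cell receptor, had 1.81 to 9.02 with a median of 7.10 in knockout and 1.50 to 6.03 with a median of 4.82 in wild-type vessels, a difference of 1.90 ± 0.83. T and NK cell genes had a median of 0.04, or 0.16 without mice 7 and 29, among them Ccl5, a chemokine of these cells, with 7.96, 7.98, 8.26 and 9.11 in knockout vessels, against 6.99, 7.89, 7.26 and 7.05 in wild-type vessels after 3 months. The groups of Ccl5 did not overlap at 3 months and did at 8 months, and its difference was 1.07 ± 0.44. Over 25 chemokine and cytokine genes the median had no settled direction, at -0.20 over both times, 0.19 at 3 months, 0.08 at 8 months, and 0.08 over both times without knockout replicate 1 at 8 months. Among them Cxcl10, induced by interferon, differed by -1.18 ± 0.54 below the background level.

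Blood and epithelial genes varied with single mice. The 6 erythroid genes were all above 0 with a median of 1.03, and the median was 0.43 without wild-type replicate 1 at 3 months and 1.41 without wild-type replicate 3 at 3 months. In wild-type replicate 1 at 3 months and replicate 1 at 8 months Hbb-bt, a beta globin, had 1.21 and 2.11, against 5.81 to 10.44 in all knockout mice. The alpha globin gene Hba-a2 differed by 1.15 ± 0.88 and Alas2, the haem synthesis enzyme of red cells, by 1.04 ± 1.10. Platelet genes had a median of -0.35, which was -0.16 without mice 7 and 29, and Gp1ba, a platelet adhesion receptor, differed by -0.95 ± 0.38 below the background level.

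All 10 type 1 pneumocyte genes were below 0 with all mice, and 3 of 10 were above 0 without mice 7 and 29. Their median was -0.54, at 0.02 after 3 months and -0.88 after 8 months. It ran to -0.81 without wild-type replicate 4 at 3 months and to -0.32 without knockout replicate 5 at 8 months. At an unadjusted p below 0.05 there were 2, both lower, where 2.5% of all genes were so. Emp2, a membrane protein of these cells, had 8.39 to 9.60 with a median of 8.88 in knockout and 8.66 to 10.52 with a median of 9.72 in wild-type vessels, a difference of -0.63 ± 0.27. Akap5, an anchor of protein kinase A, differed by -0.90 ± 0.43. Hopx differed by -0.72 ± 0.38, the chloride channel gene Clic5 by -0.44 ± 0.25 and Ager, the receptor for advanced glycation end products, by -0.31 ± 0.96. In smoke-exposed vessels 9 of the 10 genes were above 0 with a median of 0.49.

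Type 2 pneumocyte genes had a median of -0.19 with 4 of 12 above 0. It was 0.06 with 6 of 12 above 0 without mice 7 and 29, and 0.04 without wild-type replicate 2 at 8 months, which is mouse 29. Lpcat1, which makes surfactant phosphatidylcholine, had 2.46, 1.76, 1.55, 3.02 and 2.42 in knockout vessels, each below the 3.61, 4.91, 5.74, 5.23 and 3.57 of wild-type vessels after 8 months. Its difference was -2.37 ± 0.54 at 8 months and -0.53 at 3 months, at levels around background. Among proteases and their inhibitors 9 of 20 genes were above 0 and 11 below, with a median of -0.10. Of this list Slpi, a protease inhibitor of airway secretions, had 5.15 to 12.66 in knockout and 3.65 to 9.31 in wild-type vessels. Its difference was 2.10 ± 0.86.

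The 11 ciliated cell genes were all above 0 with a median of 0.26, or 0.54 without mice 7 and 29. Without wild-type replicate 3 at 3 months the median was -0.11 with 5 of 11 above 0, and without the 3 arrays with Xist above Eif2s3y it was -0.20 with 3 of 11 above 0. Foxj1, the master regulator of motile cilia, differed by 0.45 ± 0.95, Dnah9, an axonemal dynein, by 1.02 ± 0.62 and Sntn, of the ciliary tip, by 1.00 ± 0.80. Beside Dnaaf3, named above, the list mean was 3.97 to 8.72 in knockout and 3.64 to 7.39 in wild-type mice. With the ciliated cell score as a covariate, chosen after seeing the data, Dnaaf3 differed by 1.90, against 2.12 without it.

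Heart muscle genes had a high mean in single mice of both genotypes, though in none of the knockout mice after 3 months. The list mean was 4.32, 4.18, 4.15 and 4.05 in knockout mice after 3 months, against 4.49, 4.08, 11.27 and 8.98 in wild-type mice. At 8 months the list mean was 4.10, 5.73, 11.75, 4.15 and 3.65 in knockout mice, against 3.52, 3.88, 8.23, 4.33 and 4.73 in wild-type mice. Its median difference was -3.04 at 3 months and 0.95 at 8 months, and over both times it was -0.75, between -1.73 without knockout replicate 3 at 8 months and -0.05 without wild-type replicate 3 at 3 months, and it was 0.12 without the 3 arrays with Xist above Eif2s3y. Myh6 differed by -0.87 ± 1.88, Tnnt2, cardiac troponin T, by -1.14 ± 1.26, Mybpc3, the cardiac myosin binding protein, by -1.85 ± 1.35 and Pln, phospholamban, by -1.21 ± 1.02. Actc1, cardiac actin, was at 12.37 to 14.06 in knockout and 12.67 to 13.99 in wild-type vessels, with a difference of -0.10 ± 0.18.

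Oxidative phosphorylation genes were highest in the 2 mice with the highest heart muscle means. The mean of the oxidative phosphorylation list was 11.28 in knockout replicate 3 at 8 months and 11.07 in wild-type replicate 3 at 3 months, and 8.82 to 9.83 in all other mice. Its median difference was -0.69 with 0 of 20 genes above 0 at 3 months, and 0.27 with 18 of 20 above 0 at 8 months. With the heart muscle score as a covariate, chosen after seeing the data, the median at 3 months was -0.07. That score comes from the same arrays, and the cause of the oxidative phosphorylation differences was not tested. Adipocyte genes had -1.39 at 3 months and 0.59 at 8 months, and Lpl, lipoprotein lipase, had 1.39 to 11.06 in knockout and 4.28 to 9.89 in wild-type vessels, a difference of -2.23 ± 0.98. Without the 3 arrays with Xist above Eif2s3y the medians over both times were 0.05 for oxidative phosphorylation and 0.55 for adipocytes, against -0.18 and -0.13 with them. The adipocyte median was -0.26 without mice 7 and 29. With the same covariate the adipocyte median was 0.08 with 5 of 10 genes above 0 at 3 months, against 1 of 10 without it. Over both times it was 0.27 with 9 of 10 above 0, and the cause was not tested.

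**Figure D5:**
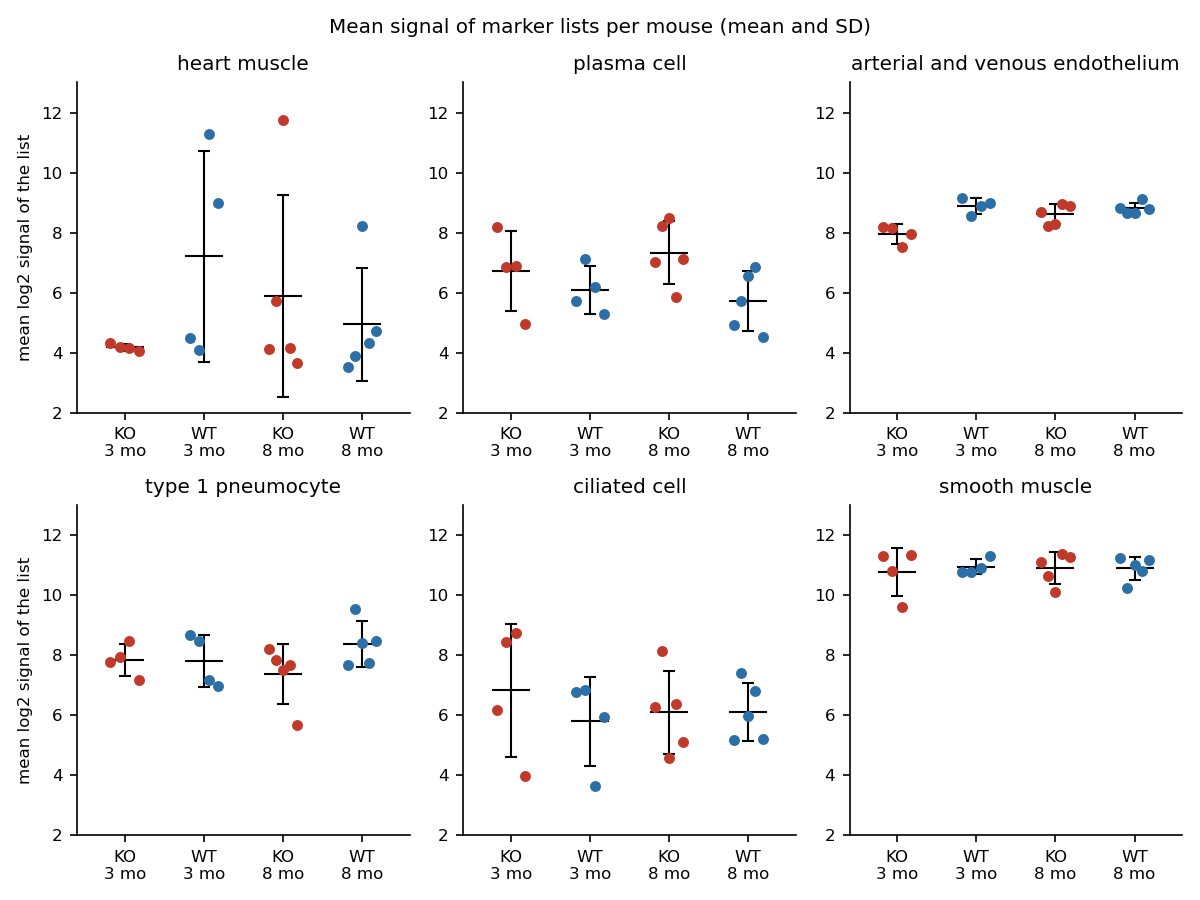
Mean log2 signal of cell type lists in each mouse, knockout left of wild type at each time, with the group mean as a bar and the SD as whiskers. The heart muscle list is at 11.75 in 1 knockout mouse and 11.27 in 1 wild-type mouse and near 4 in most others, and the arterial and venous endothelial list separates the genotypes at 3 months alone.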

How the data were processed

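Per the labels' protocols, RNA came from the RNeasy Micro kit, its amplification used Ovation PicoSL WTA V2, and Cy5 was the dye of the single-colour arrays. The deposited table holds log2 values whose column medians lay between 3.19 and 3.192, with quartiles that differed by at most 0.0024 between arrays. The submitters' processing notes name limma. How the authors corrected the background is not stated in any label or header used here. No further normalization was applied. Of 62976 features 31465 carried a symbol, of which 29050 were matched by accession to RefSeq genes with 2933 newer symbols taken over. An empty cell removed 671 features, and the feature with the highest mean over all arrays stood for the 6007 genes with several.

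Genotype was tested with limma 3.58.1 in R 4.3.3 (lmFit, eBayes with trend, Benjamini-Hochberg over 20710 genes at 0.05), with months as a factor, or with 4 group means for each time and their difference. Smoke-exposed vessels entered a fit of 8 vessel groups, and septa a fit with duplicateCorrelation by mouse. Python 3.11.15, numpy 2.4.6, scipy 1.17.1, pandas 2.3.3 and matplotlib 3.10.9 gave the exact permutation tests and figures, and the files were read with the R package data.table, version 1.17.8. The arrays of mouse 25 correlated at 0.851, within the 0.827 to 0.876 of the other pairs of their group.

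Named genes were the 10 of lowest p in each direction above background (4 for each time and for the difference between times). To these came the NADPH oxidase and sex-linked lists, and the members of lowest p over both times, up to 4, of each other list. The groups, members and lists were chosen with earlier results of these data known. Scripts were tested on simulated data.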

Additional observations from a re-analysis of the deposited data

Results flagged for a closer look

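Within each group of 4 or 5 mice, 105 named genes were checked for a sample far from the rest (Dixon's test), and 36 of 420 groups (8.57%) had one, where chance gives about 1 in 20. No result differed between the times past adjustment.

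The sex-linked genes gave 6 of these. Xist stood apart at 10.8 in knockout replicate 2 at 3 months, 12.9 in knockout replicate 4 at 8 months and 12.3 in wild-type replicate 3 at 3 months, and Eif2s3y at 2.04, 1.66 and 1.96 in the same arrays.

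In knockout mice after 3 months, replicate 2 stood apart in Evi2a (5.10) and Cybb (4.81), and replicate 4 in Jchain (2.97), Cd79b (1.81), Col4a2 (6.73) and Nppc (6.15). Replicate 1 stood apart in Pln (3.88). In knockout mice after 8 months, replicate 3 stood apart in Ifitm6 (7.27), Zbtb6 (3.72), Mybpc3 (12.8), Pln (9.32) and Foxj1 (4.52). Replicate 4 did so in Nox1 (3.93), replicate 2 in Duoxa2 (3.13) and Sntn (7.48), replicate 5 in Hopx (7.08) and replicate 1 in Dnah9 (7.27).

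In wild-type mice after 3 months, replicate 4 stood apart in Btg1 (8.08), Acta2 (15.1) and Slc7a11 (2.18), replicate 1 in Noxa1 (5.14) and Gp1ba (3.87), and replicate 2 in Lpcat1 (1.70). In wild-type mice after 8 months, replicate 1 stood apart in Micos13 (8.13), Hba-a2 (4.57) and Hbb-bt (2.11), replicate 5 in Csprs (6.41) and Egln3 (5.47), replicate 3 in Myh6 (13.0) and replicate 4 in Slpi (9.31).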

How the results depend on the processing

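No result was past adjustment with the main settings, and the genotype, 8 month and between-time counts stayed at 0 under all 15 other settings (12 planned, 3 chosen after seeing the data) and on leaving out each of 18 mice (0 to 0). At 3 months the count was 1 with the mean of all probes and 0 to 1 on leaving out a mouse, each time Rnase9 (-1.96), named after its values were seen, at a level below background. Its adjusted p was 0.0454 with all probes and 0.037 without wild-type replicate 5 at 8 months. In smoke-exposed vessels the count was 0 to 1, with Grap2, named after its values were seen, called without knockout replicate 4 at 3 months (3.96, adjusted p 0.0464) or at 8 months (4.18, adjusted p 0.0129). The count at an unadjusted p below 0.05 over both times ran from 515 to 1087, and the lowest adjusted p over all settings was 0.233 over both times, 0.037 at 3 months, 0.102 at 8 months and 0.199 between the times. Genes above background alone gave 515 at an unadjusted p below 0.05, against 898.

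Replicate numbers were not used to pair the mice in the main fit. The 25 same-number pairs had a mean correlation of deviations of 0.037, with 2 of them over 0.1, and other pairs had -0.0096. Whether arrays with the same number share a batch was not tested. With the replicate block 0 genes passed and 948 had an unadjusted p below 0.05.

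Of 1616 values of 130 named gene results under other settings, 1591 kept their direction and side of the threshold and 25 changed sign, none of them past the threshold. Noxo1 became -0.11 without mice 7 and 29, -0.32 without arrays with Xist above their mean Y-linked signal, -0.38 without those with Xist above Eif2s3y, and -0.0467 with a ciliated cell covariate. In the first 3 of these settings Nox1 became -0.14, -0.16 and -0.13 and Eif2s3y 0.28, 0.12 and 0.13. In the second and the third, Myh6 became 0.12 and 0.88, Actc1 0.0544 and 0.0174, and Foxj1 -0.99 and -0.64. Ager became 0.0085 without mice 7 and 29. With the covariates Myh6 became 0.44 (heart muscle) and Foxj1 -0.13 (ciliated cells). Each of these scores contains the gene itself, so these values of Myh6 and Foxj1 are no test. With the mean of all probes Cyba became -0.58, Duoxa2 0.24 and Nos3 0.48. With the brightest probe over control vessels Csprs became 0.92. Rac2 became -0.10 with array weights and -0.0237 with both arrays of mouse 25. The cause was not tested.

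On leaving out each mouse 18 results changed sign. Ranges in control vessels were -0.41 to 0.35 for Noxo1, -0.17 to 0.20 for Nox1, -0.39 to 0.0424 for Nox3, -0.0278 to 0.27 for Duox1, -0.16 to 0.25 for Rac2, -1.98 to 0.0771 for Myh6, -0.22 to 0.01 for Actc1, -1.04 to 0.40 for Ager, -0.21 to 1.08 for Foxj1 and -1.18 to 0.12 for Eif2s3y. In smoke-exposed vessels they were -0.64 to 0.0519 for C1galt1c1, -0.44 to 0.12 for Csprs, -0.13 to 0.59 for Dnaaf3, -0.30 to 0.0427 for Herpud2, -0.52 to 0.31 for Pbrm1, -0.17 to 0.55 for Ramp1, -0.12 to 0.95 for Scaf4 and -0.22 to 0.28 for Socs4. Signals near background limit what low genes, Noxo1 among them, can show.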
